A study of Mus musculus with 18 samples.

Results

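The antigen presentation set comprised 10 genes of the major histocompatibility complex (MHC) class I and class II pathways. They were H2-T23, H2-K1, H2-D1, B2m, Tap1, Tap2, Tapbp, H2-Ab1, Cd74 and Ciita, chosen by name with earlier results of these data known. All 10 were measured, out of 23102 genes on the arrays. Total RNA was taken from J774 cells, a mouse macrophage line, after 24 h in 24 well plates. Cells received 10 µg per well of talc, 10 µg per well of titanium dioxide (TiO2) or no particles, and each of these was given with 17-β estradiol at 2 µg/mL or with its vehicle. The 6 groups, each of 3 arrays, are called talc, TiO2 and vehicle without the hormone, and talc plus estradiol, TiO2 plus estradiol and estradiol with it. All groups shared the same line and a medium free of phenol red. Whether the arrays of a group stand for separate cultures is not given in the labels; the p-values therefore measure the spread between these arrays alone, and that spread may be technical.

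MHC class I molecules show peptides of the cell's own proteins to cytotoxic T cells and natural killer cells. Immunoproteasomes cut the peptides, the TAP1 and TAP2 transporter carries them into the endoplasmic reticulum, tapasin (Tapbp) holds the empty class I chain to the transporter, and the class I chain leaves for the surface with β2-microglobulin (B2m). Class II molecules show peptides of engulfed material to helper T cells, with the invariant chain (Cd74) guarding the groove until lysosomal proteases and H2-DM exchange it for peptide. Macrophages make both, and interferon gamma raises both, the class II genes through the co-activator Ciita. J774 is a single line derived from BALB/c mice, whose MHC haplotype differs from that of the reference strain. How allele differences in H2-K1, H2-D1, H2-T23 and H2-Ab1 touch the probes was not tested.

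The median log2 intensity over all probe sets of an array lay between 5.51 and 5.59. Macrophage identity was checked with 9 marker genes, among them Csf1r, Cd68 and Itgam. All 9 had a mean over the arrays above that of the median gene (4.73), from 6.56 for Adgre1 to 12.76 for Cd68. The mean of these 9 markers lay between 9.63 and 9.73 in the talc arrays, between 9.65 and 9.82 with TiO2 and between 9.82 and 9.85 with vehicle. With estradiol it lay between 9.75 and 9.76, with talc plus estradiol between 9.78 and 9.81, and with TiO2 plus estradiol between 9.69 and 9.72. Markers of B cells, T cells and granulocytes were all below the median gene; the B cell list was measured in 4 of 5 genes. Of the dendritic cell list, Flt3, Xcr1, Clec9a and Ccr7 were below the median gene, and Zbtb46 (5.06) and Itgax (5.94) above it. Fibroblast and epithelial lists had Col1a1, Pdgfra, Krt8 and Krt18 above the median gene, with values from 4.75 to 5.40. In bulk RNA, fewer cells of a type and less RNA per cell cannot be told apart.

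Class I promoters are known for a shared layout of elements, among them a site for CREB factors with the core TGACG and, closer to the start, a CCAAT box. Sites for RFX factors were not searched for. Upstream sequence was present in the RefSeq promoter table (GRCm38.p6) for 6 of the 10 genes. The 4 stretches set H2-T23, the member that fell with talc in both arms, beside 3 genes of the same pathway that did not pass there. They are written 5′ to 3′ towards the gene, and come from the reference strain, not from J774. H2-T23 is at chr17:36032702-36032951 (minus strand), H2-D1 at chr17:35262844-35263093 (plus strand), B2m at chr2:122147437-122147686 (plus strand) and Tap1 at chr17:34187331-34187555 (plus strand). The Tap1 stretch of 225 bases is the interval between it and the divergent gene Psmb9. Capitals mark matches to TGACG or CCAAT on either strand.
H2-T23: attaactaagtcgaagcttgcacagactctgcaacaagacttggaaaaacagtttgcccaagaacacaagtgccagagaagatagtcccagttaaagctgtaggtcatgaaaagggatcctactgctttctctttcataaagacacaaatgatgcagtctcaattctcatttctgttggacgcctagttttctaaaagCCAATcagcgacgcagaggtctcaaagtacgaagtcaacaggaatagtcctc
H2-D1: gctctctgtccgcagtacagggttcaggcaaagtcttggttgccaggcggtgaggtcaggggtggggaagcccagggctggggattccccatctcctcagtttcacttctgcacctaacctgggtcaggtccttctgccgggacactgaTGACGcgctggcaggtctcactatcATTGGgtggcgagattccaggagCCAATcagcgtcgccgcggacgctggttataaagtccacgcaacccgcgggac
B2m: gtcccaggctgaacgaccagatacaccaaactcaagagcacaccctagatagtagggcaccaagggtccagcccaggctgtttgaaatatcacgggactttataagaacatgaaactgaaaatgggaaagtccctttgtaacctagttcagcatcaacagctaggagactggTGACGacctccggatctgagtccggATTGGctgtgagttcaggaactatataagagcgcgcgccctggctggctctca
Tap1: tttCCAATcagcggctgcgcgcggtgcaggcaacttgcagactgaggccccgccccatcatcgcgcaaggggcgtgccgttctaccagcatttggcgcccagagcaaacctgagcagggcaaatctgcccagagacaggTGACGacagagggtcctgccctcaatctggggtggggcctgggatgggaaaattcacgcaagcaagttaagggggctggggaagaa

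TGACG, present in 17.7% of 32817 promoter windows of 250 bases, was found in H2-D1 (101 bases before the start), B2m (78 bases) and Tap1 (86 bases), and not in H2-T23. CCAAT, present in 33.8% of windows, lay 52 bases before the start of H2-T23 and 53 bases before that of both H2-D1 and B2m, with a further match in H2-D1 at 76 bases. In the Tap1 stretch it lay 222 bases upstream. Of the genes not printed, both windows of H2-K1 held matches of both kinds. That of Tapbp, which did not pass with talc in either arm, held 2 CCAAT matches and no TGACG. The window of Psmb9 held TGACG 144 bases and CCAAT 8 bases before its start. A link between these letters and the changes with talc was not tested. A match describes letters, not a bound site, and a missing match says only that these letters are not in this window.

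Talc lowered 1 member of the 10, H2-T23, with and without estradiol; the other class I chains, B2m, the peptide transporter, tapasin and the class II genes passed in neither arm. Passing means a limma p below 0.05 after Benjamini-Hochberg adjustment across the 23102 genes. For talc against vehicle 8.46% of all genes passed (4.52% lower, 3.94% higher), and for talc plus estradiol against estradiol 7.13% (3% lower, 4.13% higher). One gene in 10 is near those shares, so the count by itself does not set the members apart from all genes. Their median log2 change was -0.08 for talc against vehicle and -0.09 in the estradiol arm, and that of all genes 0.02 and -0.00. For TiO2 against vehicle, TiO2 plus estradiol against estradiol, and estradiol against vehicle, 0 members passed in limma, with 2, 1 and 2 at an unadjusted p under 0.05. The shares of all genes that passed there were 0%, 0.00433% and 0%, and those at an unadjusted p under 0.05 were 8.16%, 8.91% and 4.87%.

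**Figure D1:**
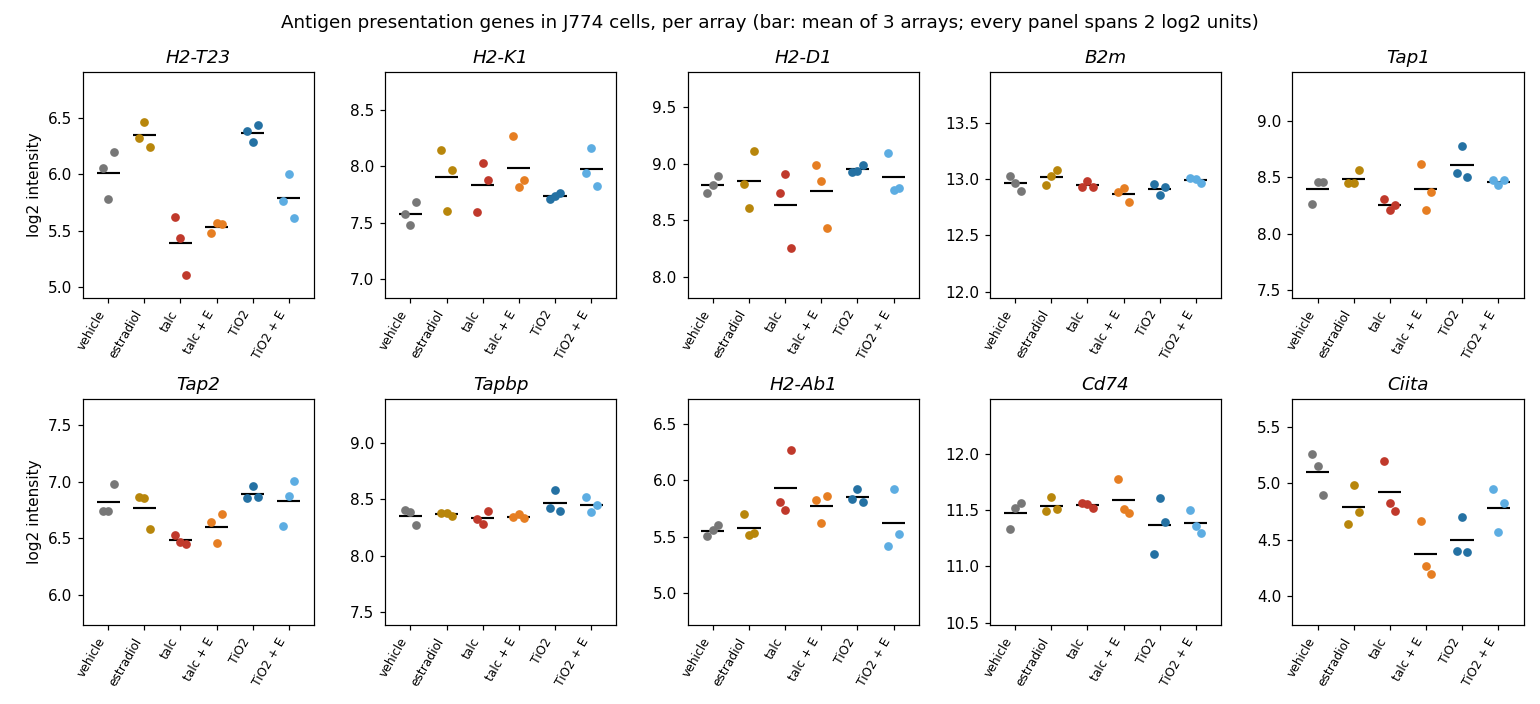
Log2 intensity of each of the 10 genes (y axis; every panel spans 2 log2 units) in the 6 groups (x axis; E stands for estradiol). Each point is an array and each bar the mean of 3 arrays. In the H2-T23 panel the 6 arrays with talc lie between 5.11 and 5.62, below all arrays of vehicle and of estradiol; the other panels are flatter.

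H2-T23 encodes the heavy chain of Qa-1, a non-classical class I molecule that shows leader peptides of other class I chains to an inhibitory receptor of natural killer cells and T cells. Its log2 intensity was 6.06, 5.79 and 6.20 in the vehicle arrays and 5.62, 5.43 and 5.11 in the talc arrays. In the estradiol arm it was 6.32, 6.47 and 6.25 without talc and 5.48, 5.57 and 5.56 with talc. The arrays of the groups compared did not overlap in either arm. Among the 10 members 3 did not overlap between talc and vehicle (H2-T23 and Tap2 lower, H2-Ab1 higher) and 2 in the estradiol arm (H2-T23 and B2m, both lower), and 26.2% of all genes did not in each arm. Talc lowered H2-T23 by a log2 change of -0.63 ± 0.14 (SE, n = 3 against 3; limma adjusted p = 0.00796), to 64.8% of the vehicle intensity with a 95% interval of 52.9% to 79.4%. With estradiol present the change was -0.81 ± 0.14 (limma adjusted p = 0.00159), to 57.1% of the estradiol intensity. The difference between these changes, -0.18 ± 0.20, did not pass (limma adjusted p = 0.925), with an interval of -0.60 to 0.23. Over both arms together H2-T23 fell by 0.72 on the log2 scale (SE 0.10, limma adjusted p = 6.33e-05), in a contrast where 14.8% of all genes passed (6.87% lower, 7.92% higher). Without talc replicate 3, the lowest array, the change against vehicle was -0.49 with a limma adjusted p of 0.0551, and with only the arrays compared in the fit the adjusted p was 0.0723. Over both arms together the call was made in all 11 other settings and in all 18 fits that left out an array. Leaving out a TiO2 array altered only the variance there, not the change. Of the settings, averaging in probe sets with several symbols could not move H2-T23, as none of those held a member. Probe sets fitted singly counted as a call when any of them passed.

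For TiO2, the other particle, the H2-T23 values differed in sign with and without estradiol, and neither change passed. The TiO2 arrays stood at 6.38, 6.29 and 6.44, all above the vehicle arrays, a log2 change of 0.36 ± 0.14 (limma adjusted p = 0.517). The arrays of TiO2 plus estradiol stood at 5.76, 6.0 and 5.61, all below the estradiol arrays, a change of -0.55 ± 0.14 (limma adjusted p = 0.398). The interaction of TiO2 with estradiol was -0.91 ± 0.20, with an interval of -1.32 to -0.49, an unadjusted p of 0.000247 in limma and an adjusted p of 0.273. For that interaction 0% of all genes passed, as for the interaction of talc with estradiol, and 8.05% of all genes had an unadjusted p under 0.05. Against TiO2, talc gave H2-T23 a log2 change of -0.98 ± 0.14 (limma adjusted p = 0.000217), to 50.6% of the TiO2 intensity; 9.96% of all genes passed there, 5.35% lower and the rest higher. With estradiol present, talc against TiO2 gave -0.26 ± 0.14 (limma adjusted p = 0.28; 9.53% of all genes passed), and these arrays did not overlap either.

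TiO2 arrays stood clear of the vehicle arrays for 6 of the 10 members, against 12.4% of all genes: H2-T23, H2-K1, H2-D1, Tap1 and H2-Ab1 were higher and Ciita lower. With estradiol present the same was seen for 2 members, H2-T23 lower and Tapbp higher, against 14.2% of all genes. None of these changes passed in limma.

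Estradiol by itself put the 3 H2-T23 arrays above all vehicle arrays, a log2 change of 0.33 ± 0.14 that did not pass (limma adjusted p = 0.99). It was the only member whose estradiol and vehicle arrays did not overlap, against 10.6% of all genes. H2-K1 had an estradiol change of like size, 0.33 ± 0.15 (limma adjusted p = 0.998), with overlapping arrays. For H2-T23 the order of the group means was TiO2 (6.37), estradiol (6.35), vehicle (6.01), TiO2 plus estradiol (5.79), talc plus estradiol (5.54) and talc (5.39). TiO2 and estradiol, and likewise talc plus estradiol and talc, differed by less than the larger SD of the pair. Against vehicle, talc plus estradiol gave -0.48 ± 0.14 (limma adjusted p = 0.0484; 6.61% of all genes passed, 3.22% lower), and 13 of 18 fits that left out an array lost that call, with adjusted p up to 0.182.

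The array measures H2-T23 with 6 probe sets. For talc against vehicle 5 of the 6 were lower, with log2 changes from -1.93 to 0.84. In the estradiol arm all 6 were lower, from -1.40 to -0.60. All 6 were also lower for TiO2 plus estradiol against estradiol, from -1.07 to -0.23, and for TiO2 against vehicle 1 was lower and 5 higher. The only probe set above its vehicle level with talc was the dimmest, with a mean log2 intensity of 2.53. In a limma fit of all probe sets, 0 of the 6 passed for talc against vehicle and 0 in the estradiol arm, with 2 at an unadjusted p under 0.05 in each. Over both arms 2 passed: the brightest (mean 9.76), at -0.66 ± 0.18 with an adjusted p of 0.0484, and another (mean 5.87), at -1.36 ± 0.33 with an adjusted p of 0.0308. When the brightest probe set stood for the gene, the change was -0.73 for talc against vehicle (limma adjusted p = 0.0943) and -0.60 in the estradiol arm (limma adjusted p = 0.196), so neither passed. The median over probe sets gave -1.20 (limma adjusted p = 0.019) and -0.91 (limma adjusted p = 0.0863). H2-T23 belongs to a family of like genes, and hybridisation of related transcripts to its probes was not tested.

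**Figure D2:**
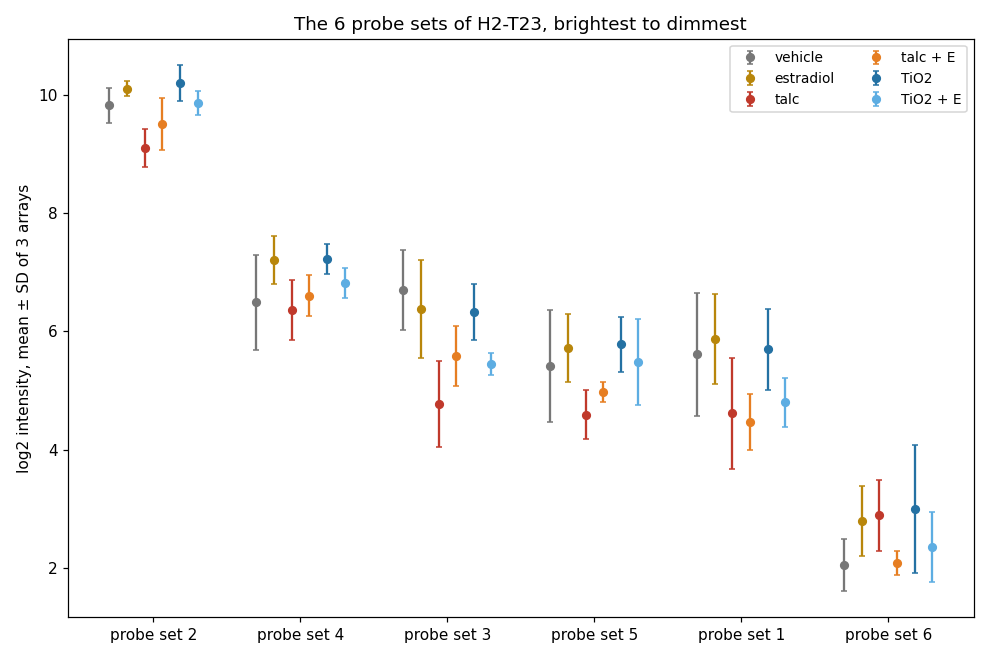
Log2 intensity of the 6 probe sets of H2-T23 (y axis), ordered from brightest to dimmest on the x axis, with points at the group mean and bars of 1 SD over 3 arrays. The talc groups lie lowest in the brightest probe set, whose mean over all arrays is 9.76.

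H2-K1 and H2-D1, the classical class I heavy chains that most peptides are shown on, did not pass in any of the 16 contrasts. H2-K1 stood at 7.58, 7.48 and 7.68 with vehicle and at 7.59, 8.03 and 7.88 with talc, and in the estradiol arm at 8.15, 7.61 and 7.97 without and 8.27, 7.81 and 7.88 with talc. These groups overlapped in both arms. Its changes were 0.25 ± 0.15 (limma adjusted p = 0.414) and 0.08 ± 0.15 (limma adjusted p = 0.853), with an interval of -0.07 to 0.58 for the first. The second turned to -0.06 without talc plus estradiol replicate 1 and to -0.07 without estradiol replicate 2. Of its 7 probe sets, whose means run from 3.04 to 12.83, 6 were higher with talc in each arm. The brightest stood at 12.70 ± 0.10 with vehicle and 12.88 ± 0.07 with talc (SD, n = 3). The dimmest was more variable, at 2.36 ± 0.58 and 2.90 ± 1.15. The TiO2 arrays of H2-K1, at 7.71, 7.73 and 7.76, lay just above the vehicle arrays, for a change of 0.15 ± 0.15 (limma adjusted p = 0.841).

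H2-D1 stood at 8.74, 8.82 and 8.89 with vehicle and at 8.74, 8.91 and 8.26 with talc. It was 8.82, 8.61 and 9.12 with estradiol alone and 8.99, 8.84 and 8.43 with talc plus estradiol. Replicate 3 was the lowest array of both talc groups. The log2 changes were -0.18 ± 0.17 (limma adjusted p = 0.663) and -0.09 ± 0.17 (limma adjusted p = 0.848), and the interval for talc against vehicle ran from -0.54 to 0.19. Neither had a settled sign: without replicate 3 of the talc group they became 0.01 and 0.07, and with the median over probe sets 0.07 and 0.03. Its 4 probe sets were split for talc against vehicle, 3 higher and 1 lower, the lower one at -0.99. Neighbouring group means of H2-D1 differed by less than the larger SD of the pair throughout the order.

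B2m, the light chain that every class I molecule needs, was among the steadiest members. Its group means spanned 0.15 log2 units, from 12.87 with talc plus estradiol to 13.02 with estradiol. The vehicle arrays were 13.02, 12.96 and 12.90 and the talc arrays 12.93, 12.98 and 12.93, a change of -0.01 ± 0.08 with an interval of -0.19 to 0.16 (limma adjusted p = 0.964), which turned to 0.02 without vehicle replicate 1. In the estradiol arm the arrays did not overlap: 12.94, 13.02 and 13.08 without talc and 12.89, 12.92 and 12.79 with talc, a change of -0.15 ± 0.08 (limma adjusted p = 0.356). That change passed in 1 alternative, with an intensity trend and robust variance (limma adjusted p = 0.0498).

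Other class I and class I-like chains were followed with a list of 14 genes, 11 of them measured; H2-Q7, H2-T3 and H2-T22 were not analysed here. For talc against vehicle 1 of 11 was higher and 1 lower, where 3.94% and 4.52% of all genes were, and in the estradiol arm 0 passed in limma, against 7.13% of all genes. Their median changes were -0.04 and -0.19. Mr1, which presents microbial vitamin metabolites to mucosal-associated T cells, fell by 0.89 on the log2 scale with talc (SE 0.21, limma adjusted p = 0.0137), from 9.99 ± 0.04 to 9.10 ± 0.16 (SD, n = 3). Together with estradiol Mr1 went from 9.93 ± 0.15 to 9.21 ± 0.21, a change of -0.72 ± 0.21 with a limma adjusted p of 0.0528, and over both arms of -0.80 ± 0.15 (limma adjusted p = 0.0012). Mr1 lost its call against vehicle without talc replicate 1 (limma adjusted p = 0.0506), without talc replicate 3 (0.0634) and in 2 of 11 other settings, one of them the median over its 8 probe sets (-0.68, 0.0892).

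H2-T10, a non-classical chain with 3 probe sets here, rose by 0.54 ± 0.16 with talc against vehicle (limma adjusted p = 0.0492). Its level of 3.60 ± 0.22 with vehicle was below that of the median gene. This call was lost in 12 of 18 fits without an array, with adjusted p up to 0.175. Of the 9 other settings, 4 kept the call and 4 lost it with the same sign. In the remaining setting, the brightest probe set, the change ran the other way, at -0.19 (limma adjusted p = 0.857). Over both arms H2-Q6 fell by 0.33 (SE 0.11, limma adjusted p = 0.0457) and H2-M2 rose by 0.33 (SE 0.09, limma adjusted p = 0.0161). H2-Q6 lost its call in 13 of the 18 fits that left out an array, with adjusted p up to 0.123. It also lost it in 8 of 9 other settings, with adjusted p up to 0.266, the lowest of its probe sets fitted singly. H2-M2 kept its call in 6 of 10 other settings, lost it with the same sign in 2 and turned in 2. It turned to -0.29 both in the brightest probe set (limma adjusted p = 0.452) and with only its probe sets above the median level (0.302).

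Tap1 and Tap2 form the transporter that brings peptides into the endoplasmic reticulum, and tapasin, encoded by Tapbp, couples it to the class I chain. Tap2 was the only one of these that passed in any contrast, with a lower level in talc than in TiO2. Its arrays were 6.53, 6.46 and 6.45 with talc, 6.86, 6.96 and 6.86 with TiO2 and 6.74, 6.74 and 6.98 with vehicle. All talc arrays lay below all arrays of both other groups. The change was -0.42 ± 0.12 against TiO2 (limma adjusted p = 0.0355; 9.96% of all genes passed in this contrast) and -0.34 ± 0.12 against vehicle (limma adjusted p = 0.0997). Under estradiol, with 6.87, 6.85 and 6.58 without and 6.64, 6.45 and 6.71 with talc, the groups overlapped and the change was -0.16 ± 0.12 (limma adjusted p = 0.519). Of the 15 Tap2 probe sets 12 were lower over both arms, where the gene's change was -0.25 ± 0.08 (limma adjusted p = 0.0568).

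Tap2 kept its call against TiO2 in 12 of the 18 fits without an array and lost it without any of the 3 talc or 3 TiO2 arrays, with changes from -0.44 to -0.38 and limma adjusted p from 0.0639 to 0.109. Its call was also lost in 3 of 11 other settings. These were the median over probe sets (limma adjusted p = 0.435), a fit restricted to these 6 arrays (0.0757) and probe sets fitted singly. For the last, the lowest adjusted p of any Tap2 probe set was 0.128 in limma. With only genes above the median level tested, Tap2 further passed for talc against vehicle (limma adjusted p = 0.0353) and over both arms (limma adjusted p = 0.019).

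Tap1 stood at 8.27, 8.46 and 8.46 with vehicle, 8.31, 8.21 and 8.26 with talc, and 8.54, 8.77 and 8.51 with TiO2. The talc arrays lay below all TiO2 arrays and overlapped with vehicle. The changes were -0.35 ± 0.11 for talc against TiO2 (limma adjusted p = 0.0585) and -0.14 ± 0.11 against vehicle (limma adjusted p = 0.585). Of its 13 probe sets 11 were lower with talc than with vehicle, the lowest at -0.53 and the highest at 0.78. Tap1 passed for talc against TiO2 in 5 alternatives, among them the intensity trend with robust variance (limma adjusted p = 0.0211).

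Tapbp was steady, with group means within 0.13 log2 units of each other. The vehicle arrays were 8.40, 8.39 and 8.27, the talc arrays 8.33, 8.29 and 8.39, and the TiO2 arrays 8.43, 8.58 and 8.40. Talc against vehicle gave -0.02 ± 0.09, with an interval of -0.20 to 0.16 (limma adjusted p = 0.951), and -0.02 ± 0.09 in the estradiol arm (limma adjusted p = 0.936). The first of these was 0.01 without vehicle replicate 1 or talc replicate 2. All talc arrays lay below all TiO2 arrays in both arms, at changes of -0.13 ± 0.09 (limma adjusted p = 0.398) and -0.11 ± 0.09 (limma adjusted p = 0.5). Of the 10 members 5 were lower and 1 higher without overlap in talc against TiO2, where 26.4% of all genes did not overlap. With estradiol 3 members were lower without overlap (H2-T23, B2m and Tapbp), against 27.8% of all genes.

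Peptide supply to class I was followed with 12 further genes, all measured: subunits of the immunoproteasome and its activator, trimming peptidases and chaperones of the loading complex. For talc against vehicle 1 of 12 was lower and none higher, and in the estradiol arm again 1 lower and none higher, where 4.52% and 3% of all genes were lower. The median changes of the 12 were -0.11 and -0.03. Psmb9, an immunoproteasome subunit transcribed away from Tap1 across the 225 bases printed above, fell by 0.54 with talc (SE 0.12, limma adjusted p = 0.00715), from 7.20 ± 0.07 to 6.66 ± 0.06 (SD, n = 3). Psmb9 with estradiol went from 7.12 ± 0.16 to 7.06 ± 0.22. With the median over its 10 probe sets, Psmb9 gave -0.13 for talc against vehicle (limma adjusted p = 0.769). Psme2, a subunit of the proteasome activator that interferon gamma induces, fell by 1.20 in the estradiol arm (SE 0.25, limma adjusted p = 0.0069), from 5.97 ± 0.11 to 4.77 ± 0.38 (SD, n = 3). It stood at 5.36 ± 0.09 with vehicle and at 5.22 ± 0.25 with talc. The fall of Psme2 shrank to -0.39 in its brightest probe set (limma adjusted p = 0.686) and to -0.33 in the median over its 3 probe sets (limma adjusted p = 0.67).

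H2-Ab1 encodes the β chain of the class II molecule, which sits at the cell surface with the α chain from H2-Aa. Its arrays were 5.50, 5.56 and 5.60 with vehicle and 5.81, 5.73 and 6.27 with talc. No array overlapped between these groups, and the change of 0.38 ± 0.14 did not pass (limma adjusted p = 0.126). It was 0.22 without talc replicate 3, the highest array, and -0.03 in the brightest probe set. In the estradiol arm the arrays were 5.70, 5.52 and 5.53 without talc and 5.82, 5.62 and 5.86 with it, an overlap, for a change of 0.19 ± 0.14 (limma adjusted p = 0.543). The TiO2 arrays, at 5.83, 5.92 and 5.81, were also all above vehicle, at 0.30 ± 0.14 (limma adjusted p = 0.623). H2-Ab1 thus had its lowest mean in vehicle (5.56) and its highest in talc (5.94). No neighbours in the order of its means differed by more than the larger SD of the pair. When only genes above the median level were tested, talc against vehicle passed for H2-Ab1 (limma adjusted p = 0.0495), and so did talc over both arms, at 0.28 (limma adjusted p = 0.027).

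Cd74, the invariant chain, stood at 11.33, 11.52 and 11.56 with vehicle and 11.56, 11.55 and 11.51 with talc. Cd74 was 11.49, 11.61 and 11.51 with estradiol alone and 11.77, 11.51 and 11.47 with talc plus estradiol. The groups overlapped in both arms, with changes of 0.07 ± 0.12 (limma adjusted p = 0.839) and 0.05 ± 0.12 (limma adjusted p = 0.893); the second was -0.04 without talc plus estradiol replicate 1. The widest spread was among the TiO2 arrays, at 11.11, 11.61 and 11.39. For TiO2 against vehicle Cd74 gave -0.10 ± 0.12, with an interval of -0.36 to 0.16 (limma adjusted p = 0.877).

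Ciita, the co-activator that switches on class II genes, had its highest mean in vehicle and lower means in all 5 other groups. Its arrays were 5.26, 5.15 and 4.90 with vehicle, 4.64, 4.99 and 4.75 with estradiol, and 5.20, 4.83 and 4.76 with talc. They were 4.67, 4.27 and 4.20 with talc plus estradiol, 4.40, 4.70 and 4.40 with TiO2, and 4.95, 4.57 and 4.82 with TiO2 plus estradiol. All arrays of talc plus estradiol and of TiO2 lay below the lowest vehicle array, and also below the level of the median gene (4.73). The mean of Ciita over all arrays, 4.75, was near that level. Talc plus estradiol lowered Ciita against vehicle by -0.73 ± 0.16 (limma adjusted p = 0.0109), to 60.5% of its intensity. The separate steps did not pass: talc against vehicle gave -0.18 ± 0.16 (limma adjusted p = 0.633), estradiol against vehicle -0.31 ± 0.16 (limma adjusted p = 0.998), and talc plus estradiol against estradiol -0.42 ± 0.16 (limma adjusted p = 0.148). The interaction of talc with estradiol for Ciita was -0.24 ± 0.23 (limma adjusted p = 0.911). TiO2 against vehicle gave -0.60 ± 0.16, with an unadjusted p of 0.00164 in limma and an adjusted p of 0.398.

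The Ciita call depended on how its 20 probe sets, whose means run from 2.56 to 7.83, were put together. With only the probe sets above the median level, talc plus estradiol against vehicle turned to 0.15 (limma adjusted p = 0.52), and the brightest probe set gave -0.14 (limma adjusted p = 0.878). The call was also lost without vehicle replicate 1 (-0.65, limma adjusted p = 0.058), without talc plus estradiol replicate 3 (-0.64, 0.0656) and with only the arrays compared (0.0524).

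**Figure D3:**
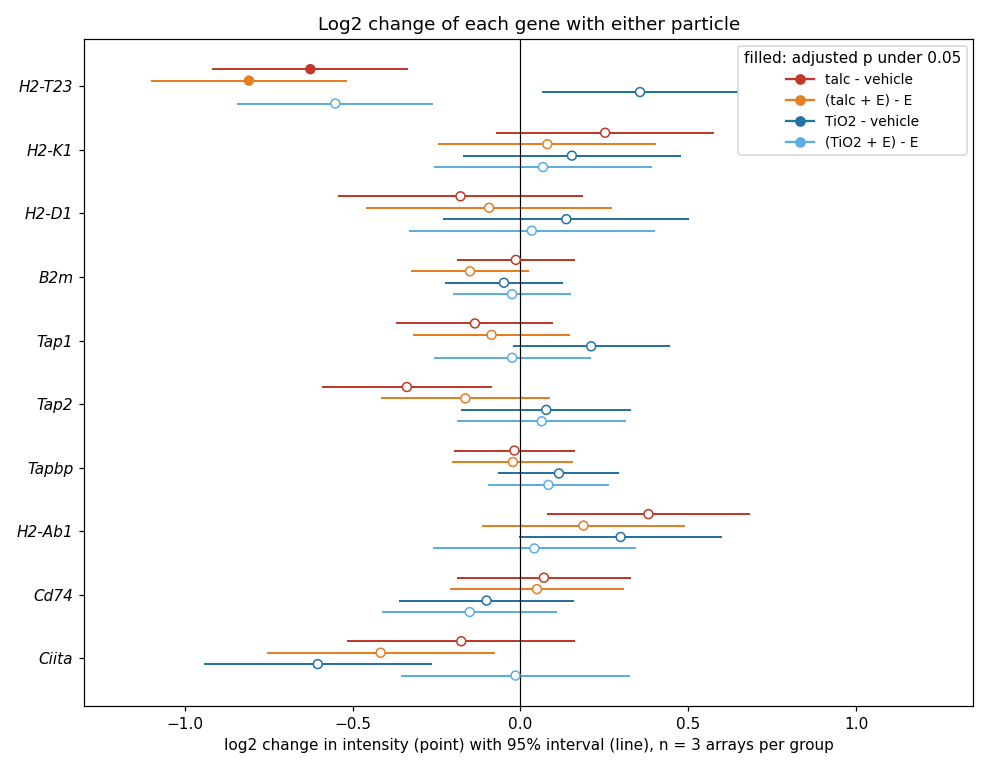
Log2 change of each of the 10 genes (y axis) with talc or TiO2 against its own control, without or with estradiol (E); lines are 95% intervals from limma and filled points passed. Only the 2 talc points of H2-T23, at -0.63 and -0.81, are filled, and the B2m and Tapbp intervals are the narrowest.

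Class II chains, H2-DM, H2-O and the endosomal proteases and ligases of the pathway made a further list of 16 genes, all measured. For talc against vehicle 2 of 16 fell and 1 rose, in the estradiol arm 2 fell and none rose, and over both arms 4 fell and 1 rose. Of all genes 8.46%, 7.13% and 14.8% passed in these contrasts, counting both directions. The median changes of the 16 were -0.11, -0.18 and -0.12, and those of all genes 0.02, -0.00 and 0.01. Lgmn, the asparaginyl endopeptidase that starts the cleavage of endosomal antigens, fell by 0.74 with talc (SE 0.09, limma adjusted p = 8.71e-05), from 10.83 ± 0.11 to 10.09 ± 0.11 (SD, n = 3). Lgmn also fell in the estradiol arm by 0.56 (SE 0.09, limma adjusted p = 0.00139), from 10.80 ± 0.02 to 10.24 ± 0.10. Lgmn stood at 10.77 ± 0.08 with TiO2. Its falls in both arms passed in all 11 other settings and in all 18 fits without an array, with changes against vehicle from -0.82 to -0.43.

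H2-DMb2, a β chain of the peptide exchanger H2-DM, fell by 0.50 with talc (SE 0.13, limma adjusted p = 0.0229) and by 0.56 in the estradiol arm (SE 0.13, limma adjusted p = 0.0143). H2-DMb2 went from 4.84 ± 0.15 to 4.34 ± 0.19 and from 4.82 ± 0.15 to 4.26 ± 0.15 (SD, n = 3), with both talc means below the median gene (4.73). The brightest of its 3 probe sets gave -1.15 and -1.22, and passed in both arms. The median over probe sets lost both calls (limma adjusted p = 0.11 and 0.178), as did fits restricted to the 6 arrays of the contrast (0.0787 and 0.0505). Both were also lost with probe sets fitted singly, where the lowest limma adjusted p of the 3 was 0.0879 and 0.0913. Without vehicle replicate 2 or 3, or talc replicate 1 or 3, H2-DMb2 no longer passed against vehicle (limma adjusted p from 0.0743 to 0.108). The same held in the estradiol arm without estradiol replicate 1 or 2 or talc plus estradiol replicate 2 or 3 (limma adjusted p from 0.0506 to 0.0743). Over both arms H2-DMb2 passed in all 18 fits without an array. H2-DMa, the α chain, fell by 0.26 over both arms (SE 0.08, limma adjusted p = 0.0247), and the ligase Marchf8, which marks class II for degradation, by 0.31 (SE 0.08, limma adjusted p = 0.0111). H2-DMa lost this call in 5 of 18 fits without an array, with adjusted p up to 0.0701, and in 4 of 11 other settings, with adjusted p up to 0.26. Marchf8 lost it with the median over probe sets (0.336) and when probe sets were fitted singly (0.109, the lowest of any of its probe sets).

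H2-Aa, the partner of H2-Ab1, rose by 0.50 with talc (SE 0.14, limma adjusted p = 0.0321), from 3.35 ± 0.17 to 3.84 ± 0.21 (SD, n = 3), both below the level of the median gene. H2-Aa with estradiol went from 3.64 ± 0.22 to 3.81 ± 0.13. The call against vehicle was lost without vehicle replicate 1 or 2 or talc replicate 1 or 3 (limma adjusted p from 0.0632 to 0.171). It was also lost in 6 of 10 other settings, with adjusted p from 0.0506 with an intensity trend and robust variance to 0.245 with the median over probe sets.

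Regulators of MHC transcription were followed with 12 measured genes. None passed in either talc arm in limma, and over both arms 1 of 12 did, against 14.8% of all genes. Irf1, an interferon-induced activator of class I genes, fell by 0.25 over both arms (SE 0.08, limma adjusted p = 0.0343). Its means were 6.30 ± 0.17 with vehicle, 5.98 ± 0.05 with talc, 6.41 ± 0.14 with estradiol and 6.23 ± 0.14 with talc plus estradiol (SD, n = 3). Irf1 lost that call in 8 of the 18 fits without an array, with adjusted p up to 0.0966, and in 4 of 11 other settings, with adjusted p up to 0.531. Spi1, the myeloid factor PU.1, gave 0.18 ± 0.07 over both arms (limma adjusted p = 0.101). Nlrc5, the class I counterpart of Ciita, stood at 5.29 ± 0.12 with vehicle and 5.27 ± 0.08 with talc (limma adjusted p = 0.959).

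Of 11 genes of interferon gamma and IL-10 signalling, none passed in limma for talc in either arm or over both. Il10ra, the ligand-binding chain of the IL-10 receptor, gave 0.19 ± 0.06 over both arms (limma adjusted p = 0.051), and Il10 gave -0.22 ± 0.09 (limma adjusted p = 0.144). Il10 stood at 4.22 ± 0.16 with vehicle, below the median gene.

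**Figure D4:**
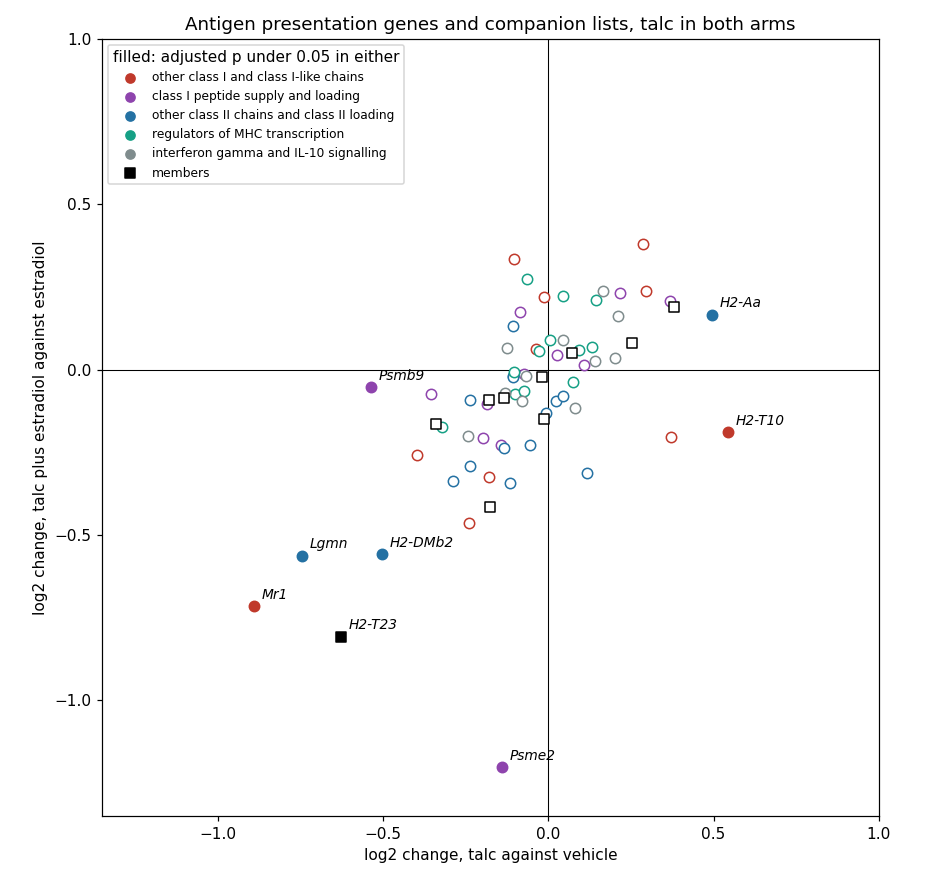
Log2 change with talc against vehicle (x axis) and with talc plus estradiol against estradiol (y axis) for the 10 genes (squares) and the 5 companion lists (circles); filled symbols passed in at least 1 arm. H2-T23, Lgmn and H2-DMb2 passed in both arms, and most open symbols lie near 0.

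Of the 9 macrophage markers 2 passed in each talc arm, both lower against vehicle and 1 in each direction in the estradiol arm, where 8.46% and 7.13% of all genes passed. Adgre1 fell by 0.79 (SE 0.16, limma adjusted p = 0.00516) and Itgam by 0.57 (SE 0.10, limma adjusted p = 0.00165) against vehicle, and Itgam by 0.37 in the estradiol arm (SE 0.10, limma adjusted p = 0.0332). Cd14 rose by 0.37 in the estradiol arm (SE 0.09, limma adjusted p = 0.0153). Among the markers of other cells Pdgfra fell in both arms, by 0.67 and 0.89, and no dendritic, B, T, granulocyte or epithelial marker passed in either. Over both arms together 1 of 6 dendritic cell markers passed, higher, where 14.8% of all genes passed. For talc plus estradiol against vehicle 1 of 6 dendritic cell markers passed higher and 1 of 4 B cell markers lower, where 6.61% of all genes passed. The part of these shifts in the values of H2-T23, Mr1, Lgmn and the other genes was not tested.

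For each member that passed anywhere, the genes with the most similar pattern were sought by Pearson correlation of log2 values over the 18 arrays, among 10904 named genes above the median level. The arrays share their groups, so these values describe likeness over 6 treatments and carry no test. H2-T23 was closest to Mprip (0.92), Itgav (0.911) and E2f7 (0.91). Itgav, an integrin α chain, changed by -0.54 and -0.41 with talc in the 2 arms, and E2f7, a transcriptional repressor of the cell cycle, by -0.72 and -0.89. Tap2 was closest to Ckb (0.881), Ccm2 (0.858) and Adssl1 (0.858). Ciita was closest to Myh7b (0.753), S1pr1 (0.733) and Proser2 (0.714).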

How the data were processed

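Total RNA of 18 samples of J774 cells was measured on Affymetrix arrays, 3 per group. The deposited values are linear intensities per probe set, made by the authors with RMA per the submitters' processing notes; its version and the step back from the log scale are not given in the sources used here. Of 269751 probe sets 233753 carried 1 gene symbol, 5106 several (none of them a member's) and 30892 none; 2247 symbols were updated through RefSeq synonyms. The log2 intensities of a gene's single-symbol probe sets were averaged, which gave 23102 genes. This average gives dim probe sets the weight of bright ones and can mask changes limited to part of a transcript.

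The tests used lmFit and eBayes of limma 3.58.1 (R 4.3.3), with 1 mean per group over all 18 arrays, 12 residual and 4.57 prior degrees of freedom. Benjamini-Hochberg adjustment ran over all 23102 genes in each of 16 contrasts. The steps were tested on simulated data. The members and lists were chosen with earlier results of these data known. Named were all members, companion and marker genes that passed for a particle or estradiol against its own control, otherwise the 2 of a list with the largest statistic for talc over both arms, and the 3 genes most alike to each member that passed. H2-Q6, H2-M2, H2-DMa, Marchf8 and Nlrc5 were added after their values were seen. Alternatives covered array scaling, the summary of probe sets, dim genes, the variance model, array weights, the arrays fitted and each array left out. For probe sets fitted singly, the value was the median change and the adjusted p the lowest over a gene's probe sets. Leaving out an array of a group outside a contrast alters the variance but not the log2 change. Replicate numbers follow deposition order and pair nothing. Array numbers run through the groups one after another, so processing order and group cannot be told apart. The number of arrays limits the precision: the median SE of a difference between 2 groups was 0.15 log2 units.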

Additional observations from a re-analysis of the deposited data

How the results depend on the processing

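The number of members that passed in limma was 0 under all 28 alternatives for 11 of the 16 contrasts, among them both TiO2 comparisons, estradiol against vehicle and both interactions. For talc against vehicle the count of 1 became 0 with the brightest probe set or with only the arrays compared, 3 when dimmer genes than the median gene were dropped, and 0 to 1 on leaving out an array (0 without talc replicate 3). For talc plus estradiol against estradiol the count of 1 became 0 with the median over probe sets or the brightest probe set, 2 with an intensity trend and robust variance, and was 1 to 1 when an array was left out. For talc against TiO2 the count of 2 became 1 with the median over probe sets or only the arrays compared, 4 with only probe sets or only genes above the median level, and 1 to 3 without an array (1 without any single talc or TiO2 array). For talc plus estradiol against vehicle the count of 2 became 1 with quantile normalization or the median over probe sets, and 0 with the brightest probe set, only probe sets above the median level or only the arrays compared. It was 0 to 2 without an array (0 without vehicle replicate 1 or talc plus estradiol replicate 3). For talc over both arms the count of 1 became 2 with the median over probe sets, the intensity trend or array weights, 4 with only genes above the median level, and 1 to 2 without an array. Fewer genes tested, or fewer arrays in the fit, is part of some of these settings; beyond that the cause was not tested.

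Among values that had passed and are named here, signs turned for Ciita, talc plus estradiol against vehicle, at 0.15 with only probe sets above the median level, for H2-T10, talc against vehicle, at -0.19 in the brightest probe set, and for H2-M2, talc over both arms, at -0.29 both in the brightest probe set and with only probe sets above the median level. Over all contrasts and alternatives, 257 of 4640 values of the members had the other sign than the value reported, 256 of them where the member had not passed. Part of the 4640 could not turn, so the share understates how often signs moved. Leaving out an array of a group outside a contrast leaves its change as it was. Averaging in probe sets with several symbols could not move a member, as none of those held one. Scaling moved the median change of all genes by up to 0.03 on the log2 scale. No paired analysis was possible because the labels give the arrays of different groups no shared replicate numbers.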
